A study of Arabidopsis thaliana with 28 samples.

Results

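The 97 genes described here are those whose signal was lower both after 24 h of cold and in a line overexpressing the transcription factor HSFC1. They were chosen on measured values among 22746 probe sets of the array, of which 13513 are annotated with a single gene. A gene was taken where the mean log2 signal was at most -1 in cold-treated wild type against warm wild type, at most -1 in the HSFC1 line against its wild-type control, and over 5 in both arrays of each wild-type group kept at 22 °C. A log2 difference of -1 is a 2-fold lower signal. Genes encoded in the chloroplast, 5 named genes and genes with symbols starting UGT or CYP were left out. Of 6225 single-gene probe sets over the level of 5, 533 (8.56%) met the cold limit and 330 (5.3%) met the HSFC1 limit. Another 433 were lower in cold without meeting the HSFC1 limit, and 230 the reverse. The numbers of the rule were met by 210 probe sets, of which 110 had no single gene name and 3 were left out by name.

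All arrays held RNA from the entire aerial part of Arabidopsis thaliana Col-0 plants, grown on agar at 22 °C for 12 days in constant light of about 100 µmol m-2 s-1. There were 14 groups of 2 arrays, 28 in all. Wild type (WT) was sampled warm and after 24 h at 4 °C, under light that was also reduced, to about 30, so the cold groups differ in temperature and in light. A further 11 groups were lines kept at 22 °C, each overexpressing 1 factor (HSFC1, CRF2, CRF3, CZF1, DEAR1, ERF5, MYB44, MYB73, RAV1, ZAT10 or the factor labelled ZF), and the last was a WT labelled as their control. The labels used here give neither the promoter of the transgenes nor the number of independent lines. Array medians were 5.76 to 5.84 for warm WT, cold WT and CZF1 and 5.33 to 5.48 for the other 22 arrays, so CZF1 was set beside warm WT and kept out of the tests. No probe set is named HSFC1, and overexpression of that transgene was not checked here. Of 36 marker genes of leaf, root, seed and meristem cell types, 2 were named on the array, which is too few to check the tissue.

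Plants of temperate species stop much of their growth in the cold while they acclimate, and transcripts of growth, photosynthesis and metabolism are lowered as those of protective genes rise. Expansins loosen the wall of growing cells, glycosyl hydrolase family 9 enzymes cut or trim its glucans, and SPIRAL1-like proteins organise the cortical microtubules that guide cell shape. HSFC1 belongs to class C of the plant heat shock factors, a family of DNA-binding proteins best known for heat stress. In whole shoots, fewer cells of a type and less RNA per cell cannot be told apart.

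The differences in cold and in HSFC1 chose the genes, and are given as a description without a test. In cold they ran from -5.22 to -1.03 on the log2 scale, with a median of -1.53. In the HSFC1 line they ran from -4.37 to -1.0, with a median of -1.60. In all 97 genes both cold arrays lay below both warm arrays, as they did in 40.3% of the 6225 probe sets. In all 97 both HSFC1 arrays lay below both control arrays, against 32.2% of the 6225. The size of the difference was not shared: 53 genes were lower by more in cold and 43 by more in HSFC1, 12 and 10 of them by over 1 log2 unit, while 46 genes had differences within 0.5 of each other. In 9 genes both differences were at most -2, and in 17 both lay between -1 and -1.5.

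**Figure D1:**
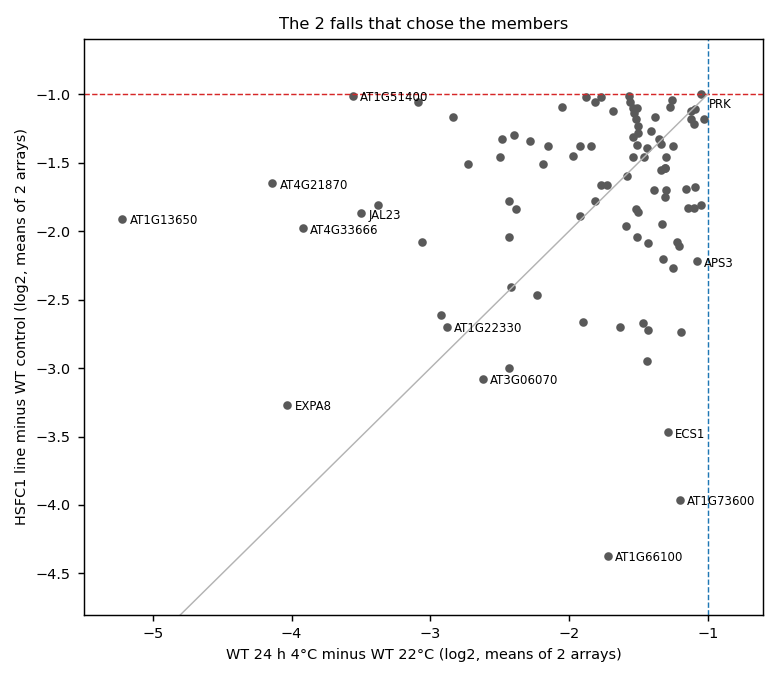
Each point is 1 of the 97 genes, with its log2 difference in cold (24 h at 4 °C minus warm WT) on the x axis and in the HSFC1 line (minus WT control) on the y axis, means of 2 arrays. Dashed lines mark the limit of -1 on both axes and the grey line equal differences; EXPA8 lies far down on both axes, AT1G13650 far out on the cold axis and AT1G66100 far down on the HSFC1 axis.

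Over the members, the 2 HSFC1 arrays differed from each other by a median of 0.54, more than the arrays of every other group but CRF3. Over the 97 genes the median difference from control was -1.80 in the first and -1.39 in the second, against -0.03 and -0.01 over all 15916 probe sets tested. The 2 cold arrays had medians of -1.58 and -1.55 against warm WT. The ratio of 3' to 5' signal of the GAPDH control probes, a measure of RNA integrity and amplification, was higher in HSFC1 (1.63 and 1.78 on the log2 scale) than in its control (0.75 and 0.91). For the ubiquitin control probes it was 1.66 and 1.71 against 1.27 and 1.2. For the actin control probes the values were closer, 5.54 and 5.59 against 5.42 and 5.4. The part of these values, or of the spread between the HSFC1 arrays, in the result was not tested. For cold, the GAPDH values were 1.30 and 1.23, within the 1.11 and 1.83 of warm WT.

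Near the limits of the rule, the genes just inside on the cold axis were PRK (-1.03), AT3G22240 (-1.05) and AT2G38970 (-1.05), and those just outside AT1G52050 (-0.99), AT2G15020 (-0.98) and AT2G41250 (-0.96). On the HSFC1 axis AT2G38970 (-1.0), AT3G19850 (-1.01) and AT1G51400 (-1.01) lay just inside, and AT1G68600 (-0.99), HPR (-0.99) and AT1G25230 (-0.98) just outside. By level, the lowest 22 °C WT array was 5.08 for AT1G70985, 5.18 for WES1 and 5.43 for AT3G06070, against 4.88 for AT5G44050, 4.87 for AT3G47380 and 4.85 for AT3G46490, which were left out.

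Of the 97 genes, 12 carry a symbol in the annotation used here. 1 more, AT5G61590, is listed there with the synonym DEWAX, and the others are named by locus. The genes of cell growth come first. EXPA8, an alpha-expansin, gave 8.53 and 7.87 in warm WT and 4.67 and 3.67 in cold. It gave 7.29 and 7.11 in WT control and 3.23 and 4.64 in HSFC1, so its differences were -4.03 and -3.27 and the smaller of the pair was the deepest of all members. Elsewhere it was highest in CRF2 (8.33 and 7.91) and ZAT10 (8.03 and 8.19), and lowest in the second CRF3 array (4.55, with 7.39 in the first) and in ZF (6.15 and 5.55). EXPB3, a beta-expansin, stood at 9.45 and 9.08 in warm WT, 7.87 and 7.89 in cold, 9.32 and 9.35 in WT control, and 7.21 and 8.06 in HSFC1. Its signal was also low in ZAT10 (6.61 and 7.52) and in MYB44 (7.82 and 6.26), and the CRF3 arrays gave 8.76 and 5.64.

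Among the other growth genes, GH9B13, of glycosyl hydrolase family 9, gave 9.65 and 9.52 in warm WT and 7.14 and 7.17 in cold, then 9.40 and 9.15 in WT control and 6.44 and 8.02 in HSFC1. Of the other lines MYB44 had its lowest mean (7.73 and 7.11). SP1L4, a SPIRAL1-like gene, went from 7.62 and 7.02 warm to 4.83 and 5.26 in cold, and from 7.59 and 7.86 in WT control to 6.5 and 6.27 in HSFC1. In ZF it stood at 5.67 and 5.84, below all arrays of the other 8 lines (6.22 to 7.97).

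2 photosynthesis genes were among the 97, both near the limit of the rule. PRK, the phosphoribulokinase of the Calvin cycle, had differences of -1.03 in cold (12.91 and 12.92 to 11.85 and 11.92) and -1.18 in HSFC1 (12.11 and 12.21 to 10.42 and 11.55). LHCB4.3, a minor antenna protein of photosystem II, had -1.12 in both (8.82 and 9.40 to 7.67 and 8.31 in cold, 8.67 and 8.97 to 7.48 and 7.91 in HSFC1). Its lowest line was ZAT10, at 6.32 and 6.29, below both HSFC1 arrays.

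Genes of metabolism and signalling made up most of the remaining symbols. APS3, an ATP sulfurylase that starts sulfate assimilation, was lower by more in HSFC1 (8.15 and 8.16 to 5.56 and 6.31, -2.22) than in cold (8.60 and 8.71 to 7.43 and 7.72, -1.08). AKINBETA1, a beta subunit of the energy-sensing SnRK1 kinase, went the other way, with -1.88 in cold (6.41 and 6.25 to 4.66 and 4.24) and -1.02 in HSFC1 (5.98 and 6.12 to 4.93 and 5.14). WES1 (GH3.5), which conjugates auxin to amino acids, gave 5.5 and 5.79 in warm WT, 4.62 and 4.15 in cold, 5.22 and 5.18 in WT control, and 3.95 and 4.37 in HSFC1. LUL4, a RING-type ubiquitin ligase of the LOG2-like group, had -1.77 in cold and -1.02 in HSFC1. AT5G61590 (DEWAX), an AP2/ERF repressor of cuticular wax genes, had -1.97 in cold (8.58 and 8.37 to 6.54 and 6.47) and -1.45 in HSFC1 (8.13 and 8.26 to 6.37 and 7.13), and stood at 9.60 and 9.33 in CZF1.

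JAL23, a jacalin-related lectin, had -3.5 in cold (6.70 and 7.16 to 3.52 and 3.33) and -1.87 in HSFC1 (5.82 and 6.04 to 4.06 and 4.06). Among the lines, ERF5 (4.16 and 4.46) and MYB44 (4.12 and 4.79) were low and RAV1 (7.57 and 6.85) high. ECS1 was at 13.42 and 13.64 in warm WT and 12.82 and 12.91 in WT control. It stood at 12.17 and 12.31 in cold but at 8.87 and 9.91 in HSFC1, a difference of -3.47. The lowest of the other lines was ZAT10, at 11.45 and 11.86.

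**Figure D2:**
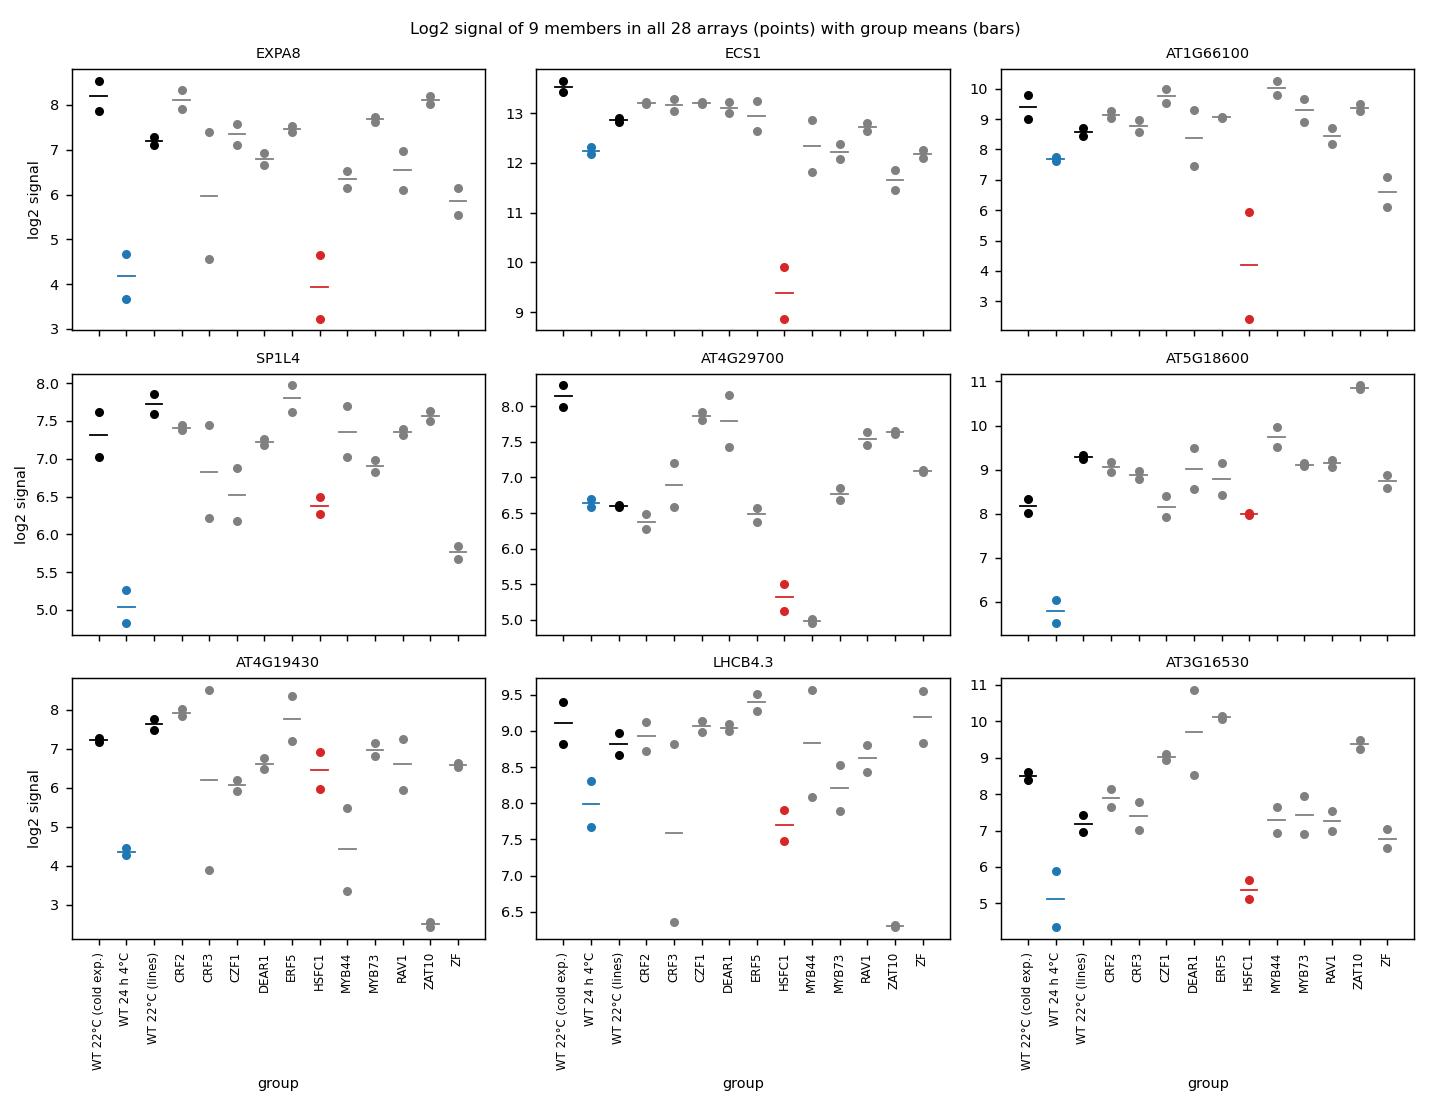
Log2 signal (y axis) of 9 members in all 28 arrays (points), by group (x axis), with bars at group means; cold WT is blue, HSFC1 red, other WT black and the other lines grey. ECS1 and AT1G66100 were lowest in HSFC1, AT4G19430 and LHCB4.3 in ZAT10, AT4G29700 in MYB44, and AT5G18600 was highest in ZAT10.

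The members named only by locus include most of the deep ones. After EXPA8, the genes ranked by the smaller of their differences were AT1G22330 (-2.88 in cold and -2.70 in HSFC1), AT3G06070 (-2.62 and -3.08), AT5G16030 (-2.92 and -2.61), AT1G19960 (-2.43 and -3.0), AT5G40450 (-2.42 and -2.41), AT4G17470 (-2.23 and -2.47) and AT2G27420 (-3.06 and -2.08). AT1G22330 gave 6.37 and 6.11 warm, 3.49 and 3.23 in cold, 5.81 and 6.42 in WT control, and 3.66 and 3.16 in HSFC1. AT5G16030 gave 10.24 and 9.84 warm, 6.90 and 7.34 in cold, 9.72 and 9.48 in WT control, and 6.37 and 7.61 in HSFC1. AT3G06070 gave 5.47 and 5.43 warm and 2.83 in both cold arrays, near the lowest value of the table (2.13), so its difference of -2.62 may be understated. In HSFC1 it was at 2.91 and 3.65, against 6.40 and 6.32 in WT control, and ZF (4.99 and 5.33) and DEAR1 (4.73 and 5.57) were on the low side of the other lines. AT1G19960 gave 9.62 and 9.74 warm, 7.43 and 7.07 in cold, 8.45 and 8.15 in WT control, and 5.8 and 4.8 in HSFC1, and was low in ZAT10 (6.18 and 6.25) and ZF (6.80 and 6.12) too. AT2G27420 gave 6.85 and 6.62 warm, 3.45 and 3.89 in cold, 7.33 and 7.30 in WT control, and 4.64 and 5.83 in HSFC1, with ZAT10 (5.24 and 5.18) and ZF (5.29 and 5.79) again low. In AT1G19960 these arrays lay between those of WT control and HSFC1, and in AT2G27420 they lay within the range of the HSFC1 pair.

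AT5G40450 gave 9.38 and 9.58 warm, 7.27 and 6.86 in cold, 9.59 and 9.48 in WT control, and 6.53 and 7.72 in HSFC1. Its other lines lay between 8.77 and 10.14, except for 7.55 in the second CRF3 array. AT4G17470 gave 8.19 and 8.57 warm, 5.8 and 6.49 in cold, 7.79 and 8.0 in WT control, and 5.47 and 5.38 in HSFC1. In CZF1 it was at 6.73 and 6.71, below both warm WT arrays. A second probe set of AT1G22330 gave -2.08 in cold and -0.51 in HSFC1, and one of AT1G31710 gave -0.17 in both, so for these genes the probe sets disagreed.

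At the ends of the range, the response was strongly unequal. AT1G13650 had the largest cold difference (-5.22), from 7.80 and 6.90 warm to 2.13 in both cold arrays, the floor of the table, against -1.91 in HSFC1 (7.49 and 7.68 to 5.2 and 6.15). AT1G66100 had the largest difference in HSFC1 (-4.37), where the arrays disagreed: 2.43, near the floor, and 5.95 against 8.43 and 8.70 in control. In cold it went from 9.81 and 9.01 to 7.62 and 7.75. AT1G73600 had -3.96 in HSFC1 (10.57 and 10.33 to 5.16 and 7.81) and -1.20 in cold.

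Families were listed by gene names in the annotation, so the 85 members named only by locus, but for AT5G61590, were not placed in them. Among the genes so listed, those other than the members mostly did not meet both limits. Of 15 expansins measured, 4 met the cold limit (EXPA8, EXPB3, EXPB1 at -1.97 and EXPA4 at -1.28) and 3 the HSFC1 limit (EXPA8, EXPB3 and EXPA15 at -1.23). In the opposite direction EXLA2 was at 2.54 in cold and EXLB1 at 2.65 in HSFC1. Of 11 nuclear photosynthesis genes, 4 met the cold limit, among them LHCB4.2 (-1.97) and PGRL1B (-1.98), and 2 the HSFC1 limit. All 4 jacalin-related lectins with a JAL symbol met the cold limit, but JAL22, JAL33 and JAL34 lay between 0.04 and 0.17 in HSFC1. Lectin genes named only by locus were not listed. Of 5 glycosyl hydrolase 9 genes, 5 genes of sulfur assimilation and 3 SnRK1 subunits, the member was the 1 gene to meet a limit in each list, and APS4 was at 1.14 in HSFC1. Of 5 SPIRAL1 genes SP1L3 met the cold limit too (-1.61), while SP1L5 was at 1.10 in HSFC1, and of 6 auxin genes GH3.17 met the HSFC1 limit (-1.63). In the lipid and cuticle list of 4 genes, AT4G13840 had -2.21 in HSFC1. No member was among the 14 other cell wall genes, 9 defence genes or 1 aquaporin listed by name. Members named only by locus were not matched to these lists, so such genes may be among them. Over 8744 single-gene probe sets tested, 684 were at most -1 in cold and 386 in HSFC1. The lists and the members were chosen with results of these data known, so these counts are a description.

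Set against WT control, whose arrays also chose the members, the other lines ranged widely and are described without a test. In CRF3 40 members were at most -1 (6.28% of the 6225 probe sets were), in ZF 35 (2.96%), in ZAT10 19 (3.02%), in MYB44 18 (2.47%), in DEAR1 13 (1.72%), in ERF5 6 (0.627%), in RAV1 3 (0.0803%), in CRF2 2 (0.321%) and in MYB73 1 (0.145%). Medians over the members were -0.88 in CRF3, -0.54 in ZF, -0.29 in DEAR1, -0.27 in CRF2, -0.24 in MYB44, -0.22 in RAV1, -0.17 in ZAT10, -0.11 in MYB73 and -0.08 in ERF5, with medians over all probe sets tested between 0.00 and 0.07. Members needed a high control signal to be chosen, which can lower each of these values. CZF1 minus warm WT had a median of -0.21 over the members and 0.01 over all, with 10 members at most -1 (0.61%), the deepest AT2G32160 at -2.17. WT control minus warm WT was -0.38 over the members and -0.42 over all.

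**Figure D3:**
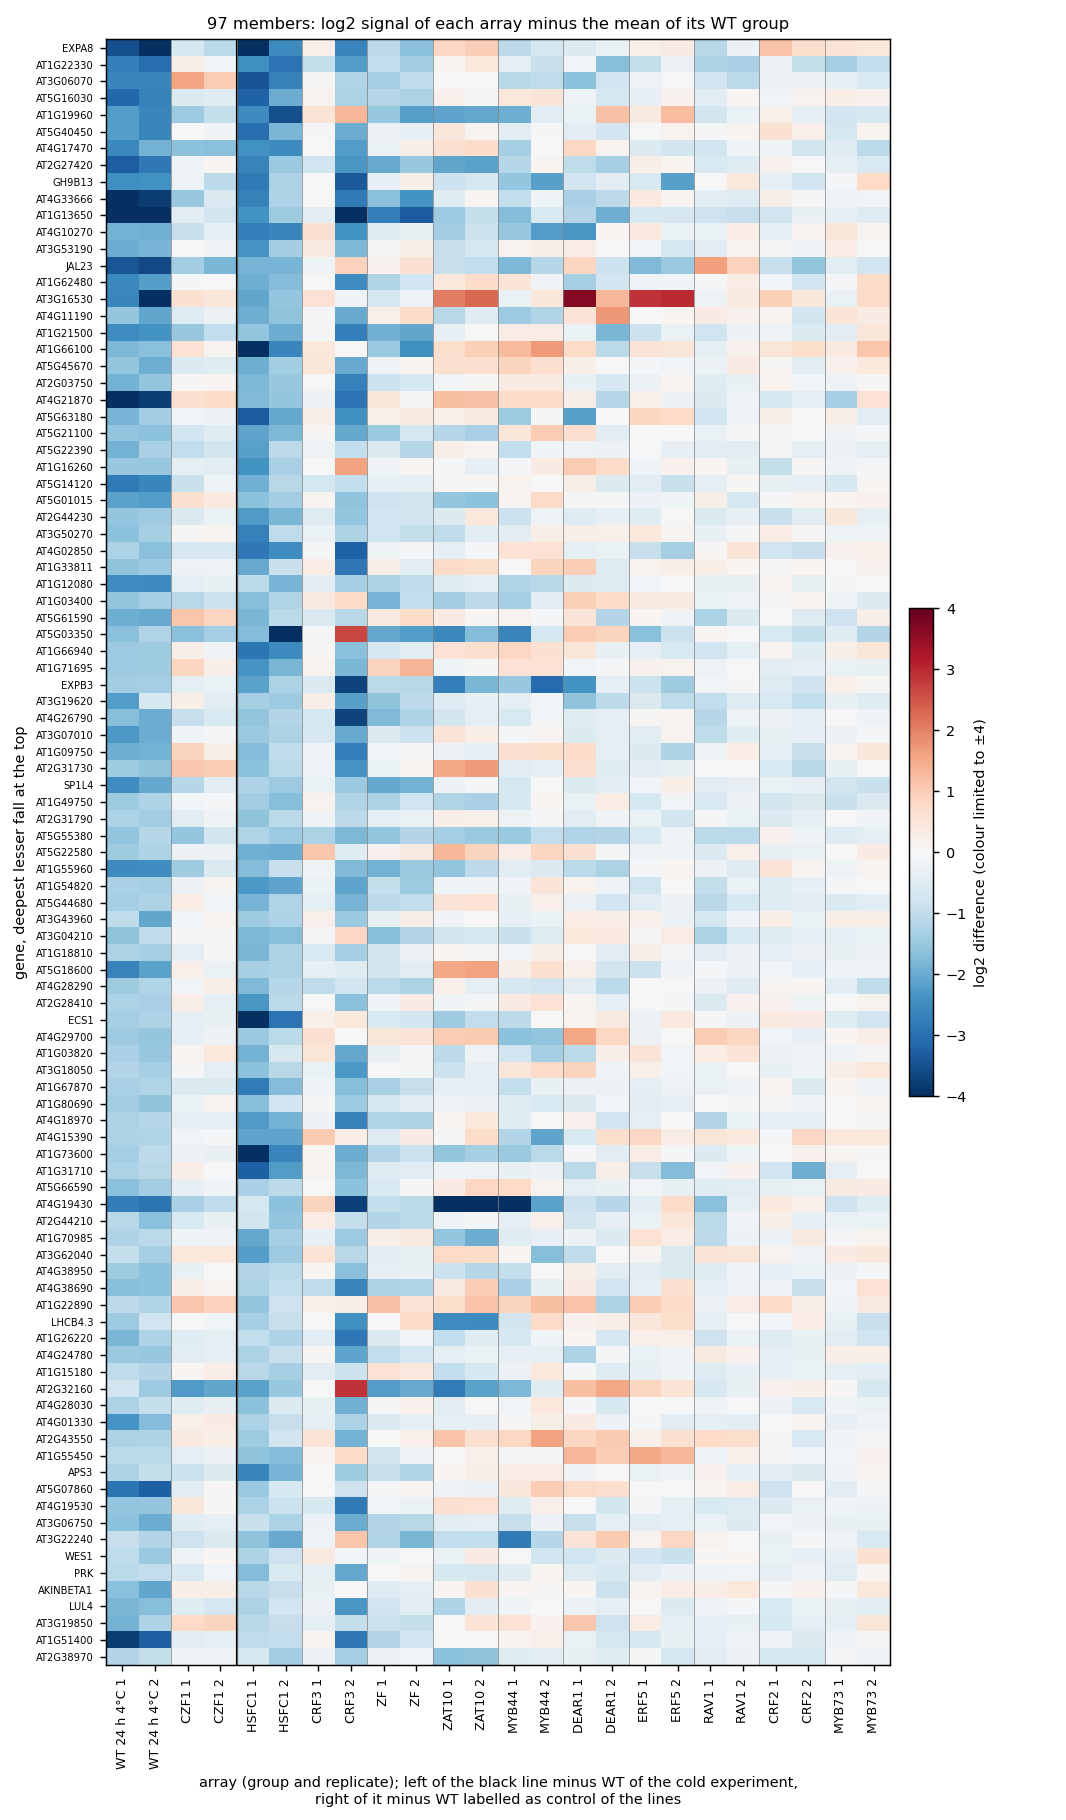
Colours show, for each of the 97 genes (rows, deepest at the top) and each array (columns), the log2 signal minus the mean of warm WT (left of the black line) or of WT control (right of it), limited to ±4. Blue is lower: the cold, HSFC1 and second CRF3 columns are mostly blue, the ZF columns partly, and the first CRF3 column is near 0.

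The 9 lines other than HSFC1 and CZF1 took no part in the choice of genes, so differences among them were tested with limma over all 15916 probe sets, with Benjamini-Hochberg adjustment and a threshold of 0.05. By the moderated F test over the 9 lines, 20 members (20.6%) differed, against 6.69% of all probe sets. The same test called 10.9% of the 433 genes lower in cold without HSFC1 and 9.57% of the 230 lower in HSFC1 without cold. The error of these tests comes from 2 arrays a line, which the labels call biological replicates without saying more, so the spread may be partly technical. The spread was widest in CRF3 (root mean square SD 0.707, against 0.218 to 0.382 in the other 8 lines), and without the CRF3 arrays 57 members (58.8%) and 25.2% of all probe sets were called, with 54.3% of the genes lower in HSFC1 alone and 37.6% of those lower in cold alone. The differences between these shares were not tested. The count of members moved also when 1 array was left out. It rose without either CRF3 array and fell without an array of any other line. The share of all probe sets called was not worked out for these fits, so these shifts cannot be called particular to the members.

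The members with the smallest adjusted p in the F test are given here by the lines in which they were low and high. AT4G29700 (adjusted p = 0.00215 by limma) was low in MYB44 (4.96 and 5.02) and high in DEAR1 (8.16 and 7.42), ZAT10 (7.61 and 7.65) and RAV1 (7.63 and 7.45). AT1G03400 (adjusted p = 0.0117) was low in ZF (4.60 and 5.47), ZAT10 (5.06 and 5.41) and MYB44 (5.12 and 6.03), and high in DEAR1 (7.40 and 7.23). AT1G55450 (adjusted p = 0.0117) was high in ERF5 (9.0 and 8.79) and DEAR1 (8.80 and 8.45). AT5G55380 (adjusted p = 0.0184) had its highest mean in CRF2, at 5.97 and 5.59, near WT control (5.78 and 5.81), followed by ERF5 at 5.19 and 5.62. CRF2 against the other 8 lines had an adjusted p of 0.159 by limma. In each of the other 8 lines both of its arrays were below those of WT control, down to 4.21 and 4.62 in ZF and 4.52 and 3.99 in CRF3. The next were AT5G18600 (adjusted p = 0.0184), AT3G04210 (0.0211), AT2G32160 (0.024), AT3G16530 (0.0243), AT1G19960 (0.0255) and JAL23 (0.0288). AT3G04210 ran from 5.39 and 5.93 in ZF to 7.53 and 7.50 in DEAR1, apart from 7.93 in the second CRF3 array. AT2G32160 had the wider range, from 3.29 and 3.96 in ZAT10 and 3.85 and 4.07 in ZF to 7.31 and 7.65 in DEAR1, with 6.13 and 8.98 in CRF3. AT3G16530 ran from 6.51 and 7.05 in ZF to 10.07 and 10.16 in ERF5, with 10.87 and 8.53 in DEAR1 and 9.25 and 9.49 in ZAT10. EXPA8, with an adjusted p of 0.101, was not among the genes called, nor were EXPB3 (0.221), GH9B13 (0.266) and PRK (0.305). In the fit without the CRF3 arrays, GH9B13 was lower in MYB44 than in the other lines (-1.46, adjusted p = 0.0249 by limma).

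Each line was then set against the mean of the other 8. ZF, the line labelled only by that name, had the most members called on the low side, 12, against 3.08% of all probe sets, with 2 called higher (5.26%). AT1G66100, the gene with the largest difference in HSFC1, was at 7.09 and 6.11 in ZF and between 7.47 and 10.25 in the other lines, a difference of -2.47 ± 0.37 (SE, adjusted p = 0.00306 by limma). SP1L4 differed by -1.55 ± 0.24 (adjusted p = 0.00349) and AT2G32160 by -2.06 ± 0.51 (adjusted p = 0.0294), at 3.85 and 4.07. APS3 was at 7.28 and 6.97, a difference of -0.89 (adjusted p = 0.0496). The others called lower were AT1G19960, AT1G03400, AT1G55960, AT3G04210, AT5G16030, AT1G55450, AT4G28290 and AT1G12080, by -1.54 to -0.69. AT1G71695 was higher, at 10.33 and 10.81 against 7.61 to 10.02 elsewhere (1.27 ± 0.32, adjusted p = 0.0327), and so was AT1G15180 (0.85). The median over the 97 genes was -0.34 in ZF, with -0.41 and -0.27 in its arrays, against 0.03 over all probe sets, 0.01 over the genes lower in cold alone and -0.08 over those lower in HSFC1 alone. Without the CRF3 arrays 38 members were lower in ZF (7.54% of all) and 3 higher (10.5%), and the lower calls took in 19.6% of the genes lower in HSFC1 alone and 12.2% of those lower in cold alone. Those then called included EXPA8 (-1.44, adjusted p = 0.00114) and AT1G13650 (-2.10, adjusted p = 0.000587), which was at 4.85 and 4.26. With 1 ZF array in place of the pair, 1 member was called: AT1G66100 without the first array and AT1G03400 without the second.

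**Figure D4:**
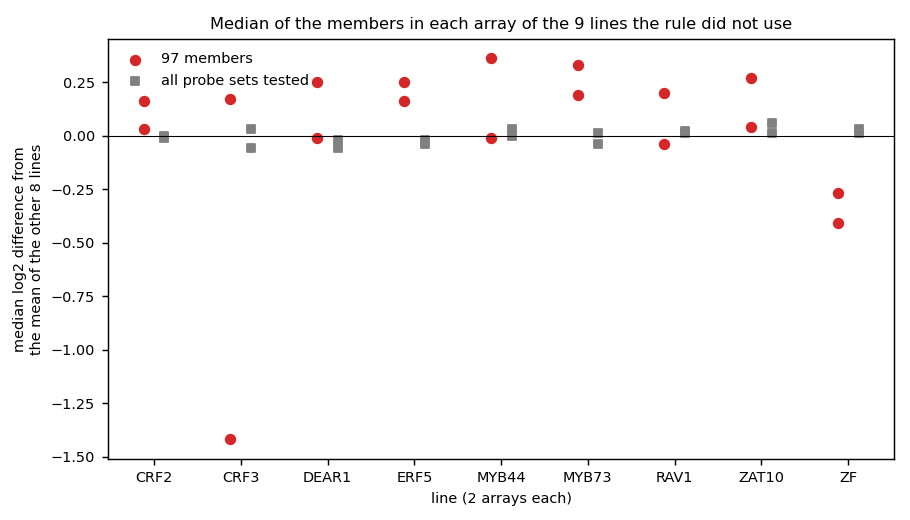
For each of the 9 lines tested (x axis), the median log2 difference of each array from the mean of the other 8 lines (y axis) is shown for the 97 members (red circles) and for all 15916 probe sets tested (grey squares), 2 arrays a line. Both ZF arrays are below 0 for the members, the CRF3 arrays lie far apart, and the grey squares stay near 0.

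ZAT10, a zinc finger repressor induced by several stresses, had 10 members called lower (3.26% of all probe sets were) and 4 higher (3.26%). AT4G19430 had the largest difference among the members called in any line, -4.13 ± 0.82 (SE, adjusted p = 0.0118 by limma). It stood at 2.43 and 2.57, near the floor of the table, where WT control was at 7.47 and 7.76. LHCB4.3 differed by -2.42 ± 0.47 (adjusted p = 0.0112) and AT2G32160 by -2.44 ± 0.51 (adjusted p = 0.0159). ECS1 was also called lower (-1.08), as were AT1G19960, AT1G70985, AT5G01015, AT2G27420, AT2G38970 and AT1G03400. On the other side, AT5G18600 was at 10.82 and 10.91 in ZAT10 and between 8.43 and 9.97 in the other lines (1.81 ± 0.22, adjusted p = 0.000878), although it was at 5.52 and 6.03 in cold and 7.96 and 8.02 in HSFC1. AT2G31730 was higher by 1.99 ± 0.40 (adjusted p = 0.0131), AT5G44680 by 1.16 and AT4G29700 by 0.89. The median over the members was 0.19, against 0.04 over all. Without the CRF3 arrays 21 members were lower (6.92% of all) and 16 higher (7.48%), EXPA8 among the higher (1.14, adjusted p = 0.00428). With 1 ZAT10 array left out, either one, only AT5G18600 of the 97 was called.

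In MYB44 3 members were called lower (0.716% of all) and none higher (0.572%), where 13 of the 97 were higher and 10 lower at an unadjusted p under 0.05 (23.7% of the members and 16.1% of all). Without the CRF3 arrays 9 were called lower (3.13% of all) and 12 higher (3.49%). AT4G29700 was at 4.96 and 5.02, below both HSFC1 arrays (5.12 and 5.51), and differed from the other lines by -2.08 ± 0.18 (SE, adjusted p = 0.000479 by limma). AT4G15390 differed by -1.99 ± 0.37 (adjusted p = 0.0288), at 7.81 and 6.88, and AT3G22240 by -1.84 ± 0.38 (adjusted p = 0.0409), at 9.13 and 10.81. Without the first MYB44 array AT4G29700 alone was called. In ERF5 2 members were called higher (0.471% of all) and none lower (0.635%), with 19 higher and 4 lower at an unadjusted p under 0.05 (23.7% of the members and 15.7% of all). With the CRF3 arrays left out, 13 were called higher (2.34% of all) and 2 lower (3.71%). AT3G16530 was at 10.07 and 10.16 (2.22 ± 0.45, adjusted p = 0.0399), above the 7.43 and 6.95 of WT control, and AT1G55450 was at 9.0 and 8.79 (1.30 ± 0.19, adjusted p = 0.016). Neither was called with an ERF5 array left out. In DEAR1 AT4G29700 was called higher (1.07 ± 0.18, adjusted p = 0.0484, 0.0691% of all). Without the first DEAR1 array it was no longer called (another member was), and without the second 2 members were called. With CRF3 left out, 9 members were called higher in DEAR1 (0.999% of all) and none lower (1.41%).

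No member was called by limma in CRF2, MYB73 or RAV1, where 0.0126%, 0.0% and 0.00628% of all probe sets were. At an unadjusted p under 0.05 there were 12 members in CRF2, 4 in MYB73 and 4 in RAV1, 12.4%, 4.12% and 4.12% of the 97, against 8.41%, 6.07% and 4.59% of all probe sets. Without the CRF3 arrays limma called 1 member lower in CRF2 (0.434% of all), AT4G02850, and 3 higher (0.364%), EXPA8, AT1G55960 and AT5G55380, and none in MYB73 or RAV1. In all, 31 of the 97 members were called in a line, as were 1530 of the 8744 single-gene probe sets tested. 6 members were called in more than 1 line, a count not worked out for other probe sets. AT2G32160, AT1G19960 and AT1G03400 were lower in both ZAT10 and ZF. The other 3 were called in opposite directions: AT3G04210 higher in CRF3 and lower in ZF, AT1G55450 higher in ERF5 and lower in ZF, and AT4G29700 lower in MYB44 and higher in DEAR1 and ZAT10.

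The CRF3 arrays have to be read one by one. Against WT control the first had a median of -0.04 over the members with 3 at most -1 (0.241% of the 6225), and the second a median of -1.70 with 71 at most -1 (18.8%). The second array minus the first had a median of -1.61 over the members, -0.05 over all probe sets, -1.44 over the genes lower in HSFC1 alone and -0.52 over those lower in cold alone. In the second array 60 members were below all 16 arrays of the other 8 lines, as were 24.3% of all probe sets. EXPB3 went from 8.76 in the first array to 5.64 in the second, GH9B13 from 9.27 to 5.91, AT1G13650 from 7.13 to 2.87 and AT4G19430 from 8.51 to 3.88. A few were higher instead: AT2G32160 went from 6.13 to 8.98 and AT5G03350 from 8.70 to 11.42. The 3' to 5' values were 2.04 and 1.81 for GAPDH and 1.41 and 1.74 for the ubiquitin control probes in the first and second array, and which array represents the line was not tested. With both arrays, CRF3 had 2 members called lower (1.02% of all) and 2 higher (2.26%): AT3G07010 (-1.07), AT1G18810 (-0.82), AT5G03350 (2.30) and AT3G04210 (0.89). Set against the mean of the other 8 lines, the first array had a median of 0.17 over the members and 0.03 over all probe sets. The second had -1.42 and -0.06.

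**Figure D5:**
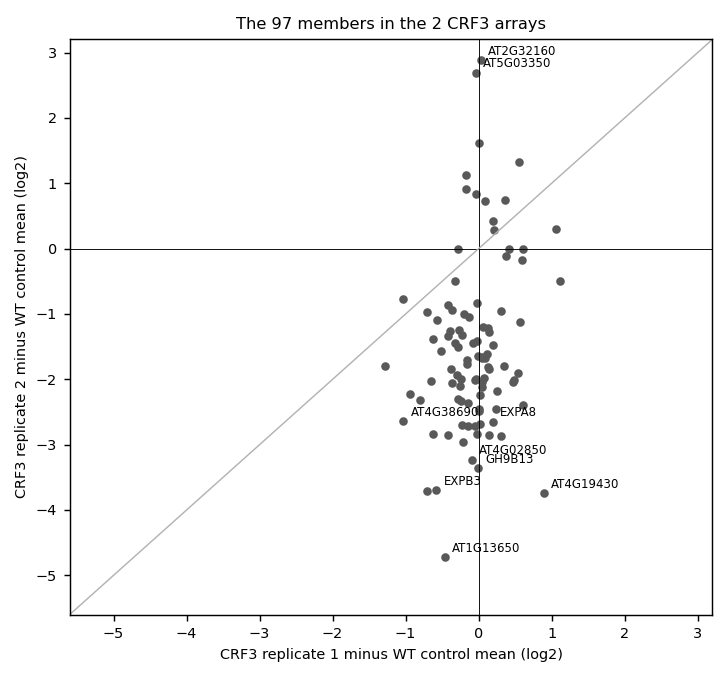
Each point is 1 of the 97 members, with its log2 difference from the WT control mean in the first (x axis) and the second (y axis) CRF3 array; the grey line marks equal values. Points gather near 0 on the x axis and spread from -4.72 (AT1G13650) to 2.88 (AT2G32160) on the y axis.

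Across the 18 arrays of the 9 lines, the median Pearson correlation of a member with the median of the other members was 0.59, and 59 of the 97 were above 0.5, as were 18.6% of all probe sets. Without the CRF3 arrays the median was 0.30 over 16 arrays, with 28 members above 0.5 and 7.37% of all. The points share arrays and their normalization, and the values are a description. In chromosome order 2 pairs of members lay close together: AT2G44210 and AT2G44230 with 1 gene between them, and EXPB3 and AT4G28290 with 3. AT4G28290 differed by -1.30 in cold and -1.46 in HSFC1, and EXPB3 by -1.39 and -1.70. AT2G44210 differed by -1.38 in cold and -1.17 in HSFC1, and AT2G44230 by -1.51 and -2.04. The rule held all these values at -1 or lower, so likeness within a pair was partly fixed by the choice. How many close pairs other genes would give was not worked out.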

How the data were processed

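Biotin-labelled RNA was hybridised to 1-colour arrays. The authors deposited log2 signals for every array in a single table. Per the submitters' processing notes GCRMA and limma were used, with no version or role given. How arrays were scaled to each other and the genome build are not given in the sources used here, so no coordinates are printed, and sequences of the members were not used here.

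Control probe sets of the array (64) were not used. Names came from the platform annotation, updated through RefSeq (TAIR10.1), where 13436 of the 13513 single-gene probe sets matched. For MYB44 and MYB73 the source names were followed, since the array titles have MYB4 and MYB7. Tests used probe sets over 4 in at least 2 arrays (15916), which kept all 97 members. The 18 arrays of 9 lines were fitted as group means by limma 3.58.1 in R 4.3.3 (lmFit, eBayes; 9 residual degrees of freedom), with Benjamini-Hochberg adjustment over all probe sets in each comparison. The code of the fit was run on simulated data with the same spread in every line. That setting lacks the wider spread of CRF3, so the run does not show how the calls hold under it. The members, gene lists and tests were chosen with earlier results of these data known. Every member may be named; fuller values are given for the 8 deepest, the 10 with the smallest F test p, up to 3 in each line, those next to the limits and those with a symbol of known role, and others were named after their values were seen. Alternatives were the normalization, the filter, the prior, the reference, the lines fitted, the replicate number as a block and leaving out arrays. The 2 arrays a group limit the precision of every value.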

Additional observations from a re-analysis of the deposited data

How the results depend on the processing

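The number of members, 97, was 205 with warm WT as the control of HSFC1 and 29 at a limit of -1.5, and 81 to 119 with an array left out. Of the 205, 89 were among the 97. With the mean of all 4 WT arrays at 22 °C as control there were 103, of which 74 were among the 97. The 20 members that differed among the 9 lines became 43 with CZF1 added as a line, 43 in a fit of all 28 arrays, 6 without the filter, 57 without the CRF3 arrays, and 3 to 87 with an array left out. Leaving out the CRF3 arrays raised calls over all probe sets too, from 6.69% to 25.2% by the F test. In lines against the other lines the members' counts were then 4 in CRF2 (0 with them), 9 in DEAR1 (1), 15 in ERF5 (2), 21 in MYB44 (3), 37 in ZAT10 (14) and 41 in ZF (14). In the fit of all 28 arrays they were 27 in CRF3 (4 before), 5 in DEAR1, 6 in ERF5 and 6 in MYB44, and with CZF1 added as a line 14 in CRF3 and 3 in DEAR1. Against WT control they were 13 in CRF3, 2 in DEAR1, 1 in ERF5 and 5 in MYB44. Without the filter they were 0 in CRF3 and in DEAR1, 1 in ERF5 and in MYB44, and 6 in ZF. With a minimum of 6 there were 9 in CRF3, and after quantile normalization 2 in DEAR1. With an array of the line left out, the range was 0 to 77 in CRF3, 1 to 2 in DEAR1, 0 to 0 in ERF5, 1 to 2 in MYB44, 1 to 1 in ZAT10 and 1 to 1 in ZF. Counts in MYB73 and RAV1 were 0 in every alternative run. For the alternatives other than leaving out the CRF3 arrays, the share of all probe sets called was not worked out. These shifts can therefore not be called particular to the members. The causes of these shifts were not tested. The fits that leave an array out also hold fewer arrays, and the part of that was not tested either.

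Same-numbered arrays of 36 pairs of lines correlated in their deviations by -0.352 to 0.175 (median -0.007, 3 above 0.1). With 2 arrays a group, these values cannot decide whether same-numbered arrays were handled together, and this was not tested. With the replicate number as a block, 15 members differed among the lines, 0 were called in DEAR1 and 1 in ERF5. Of the 38 calls of a member in a line, 33 were then kept. Without the filter 18 of the 38 were kept, and with WT control as the reference 28. Of those 38 calls none reversed in any alternative, and AT4G29700 in MYB44 and AT5G18600 in ZAT10 were the 2 called in every alternative and without either array of the line. When one array is left out, the single one remaining is assumed to vary like the other lines. Signals near the floor of 2.13 limit the differences of AT1G13650 in cold, AT4G19430 in ZAT10 and AT1G66100 in the first HSFC1 array.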
